A study of Mus musculus with 4 samples.

Results

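The proteasome subunit genes are the protein-coding genes whose symbols begin with Psma to Psmg followed by a number, without the interferon-inducible Psmb8, Psmb9 and Psmb10. There were 45 such genes among the 55487 in the deposited table: 8 of the alpha ring (Psma), 8 of the beta ring (Psmb), 6 regulatory ATPases (Psmc), 14 other members of the regulatory particle group (Psmd), 5 activators and inhibitors (Psme, Psmf) and 4 assembly chaperones (Psmg). The members were picked by symbol, with no cut on their values, but with earlier results of these data known. They were measured in poly(A) RNA of tumours taken 1 day after AXT cells, a c-MYC-driven mouse osteosarcoma line, had been implanted in matrigel in C57BL/6scid mice, which lack mature lymphocytes. Libraries c11, c15 and c22 came from AXT lines with a HIF-1alpha knockout, and the mock library came from Mock AXT cells, whose genotype is given as WT. All 4 tumours thus shared the AXT background, the immunodeficient host, the matrigel and the time. The labels name the knockout lines KO1-1, KO1-2 and KO2 and do not say which column is which line, whether a line is 1 clone, whether KO1-1 and KO1-2 share an origin, or how many animals were used. There was 1 mock library, without a replicate.

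The proteasome is the barrel-shaped protease that removes most short-lived and damaged proteins tagged with ubiquitin. Its core particle stacks rings of alpha subunits, which gate the entrance, around rings of beta subunits, some of which cut proteins. A regulatory particle on the end binds ubiquitin chains, removes them and unfolds the substrate with a ring of ATPases. Cells keep the subunit genes in step, and when proteasome activity runs short the membrane-bound transcription factor NRF1, encoded by Nfe2l1, is released and activates them through antioxidant response elements in their promoters.

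The promoters below are those of selected subunit genes. Psmb5 and Psmb6 are proteolytic subunit genes whose promoters hold a match to the core of the antioxidant response element. Psma7 is the member with the lowest fitted fold change, Psmc2 the ATPase gene with the highest, and Psmd11 the highest of all. Each line gives 120 bases, 5′ to 3′ on the gene's strand, from RefSeq on GRCm38.p6, and ends just before the more upstream of the starts that RefSeq and GENCODE give. For Psmb5 that is 27 bases before the RefSeq start, and for the other 4 it is the RefSeq start. The windows are chr14:54618023-54618142 (minus strand), chr11:70525237-70525356 (plus strand), chr2:180042465-180042584 (minus strand), chr5:21785155-21785274 (plus strand) and chr11:80428495-80428614 (plus strand). Capitals mark matches, on either strand, to the core of the antioxidant response element (TGACNNNGC), to the NF-Y box CCAAT and to the HIF core motif ACGTG. No marked matches overlapped each other.
Psmb5: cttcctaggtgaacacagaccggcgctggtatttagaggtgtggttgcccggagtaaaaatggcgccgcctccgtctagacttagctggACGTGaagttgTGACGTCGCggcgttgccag
Psmb6: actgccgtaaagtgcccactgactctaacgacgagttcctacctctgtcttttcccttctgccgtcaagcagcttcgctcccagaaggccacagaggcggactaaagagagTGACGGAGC
Psma7: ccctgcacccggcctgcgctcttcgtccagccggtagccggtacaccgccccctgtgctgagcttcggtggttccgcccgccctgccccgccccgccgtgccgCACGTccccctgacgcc
Psmc2: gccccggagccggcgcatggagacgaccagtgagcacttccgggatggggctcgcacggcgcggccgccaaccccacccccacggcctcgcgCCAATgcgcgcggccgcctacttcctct
Psmd11: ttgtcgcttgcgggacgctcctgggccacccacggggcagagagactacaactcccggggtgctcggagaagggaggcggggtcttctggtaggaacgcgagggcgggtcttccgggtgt
The Psmb5 window held TGACGTCGC and an ACGTG, and the Psmb6 window ended with TGACGGAGC. Psma7 held ACGTG on the opposite strand, Psmc2 held a CCAAT box, and the Psmd11 window held none of the motifs. In the 300-base RefSeq windows (250 bases before to 50 after each start), 37 of the 45 members had an entry, with 40 promoters in all, and the others were Psma8, Psmb1, Psmb2, Psmb7, Psmc3, Psmd3, Psmd7 and Psmg2. TGACNNNGC occurred in 6 of these 40 (15%) against 12.4% of all 32851 promoters, those of Psmb5, Psmb6, Psmc6, Psmd9, Psmd12 and Psme4. CCAAT occurred in 13 (32.5%) against 37.4% and ACGTG in 7 (17.5%) against 19.6%. GCGTG, the other form of the HIF core motif, was in 20 (50%) against 32.4%. A match is only a run of letters and was not tested for binding.

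Hif1a (chromosome 12, 73901375 to 73947530, GRCm38) was at 104, 98.7 and 22.3 CPM in the knockout libraries c11, c15 and c22, against 107 CPM in mock, so that c22 alone stood below the others. Its fitted value was -0.52 ± 0.78 on the log2 scale (± SE, edgeR adjusted p = 1). An edit that spoils the protein can leave the RNA level as it was, so counts over the whole gene do not check the knockout of c11 and c15. Total counts were between 12383719 and 13193264 per library, so that a count of 0 allowed up to 0.227 to 0.242 CPM (counts per 1000000 of the library's total, for 3 counts and counting error only). The 8 osteoblast lineage genes summed to 2250.3 to 6677 CPM in the knockout libraries, against 2120.0 CPM in mock, with 1 gene (Col1a1) above and 4 below mock in all 3 knockout libraries. Among them the lineage factor Runx2 was at 116 to 139 CPM in the knockout libraries, against 245 CPM in mock. Sp7, also a lineage factor, was at 65.6 to 144 CPM there, against 177 CPM in mock. Col1a1 was at 1913, 1093 and 4699.9 CPM in the knockout libraries, against 862 CPM in mock. Sparc reached 865 CPM in c11, 297 in c15 and 1429 in c22, against 378 CPM in mock. Col1a1 and Sparc held most of the sum in every library. Without Col1a1 and Sparc, the rest of the list summed to less than in mock in each knockout library, in c15 by a small margin. The late marker Bglap was at or under 1.45 CPM in every library. Host markers stood below mock without passing the adjusted test: all 10 tested of 12 muscle genes and all 5 tested of 7 erythroid genes were below mock in every knockout library, as were 8 of 10 macrophage genes, beside 22.5% of all tested genes. Summed muscle markers were at 1.82 to 26.1 CPM in the knockout libraries, against 120.4 CPM in mock. Erythroid markers summed to 1.63 to 41.1 CPM in the knockout libraries, against 116 CPM in mock. Macrophage markers summed to 266 to 481 CPM in the knockout libraries, against 844 CPM in mock. The muscle gene Myh2 was at 0 in all knockout libraries, against 0.969 CPM in mock. In such bulk tumours fewer cells of a type and less RNA per cell cannot be told apart. The part of the host cells in the proteasome values was not tested.

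The comparison with mock asked whether the transcripts of the proteasome depended on HIF-1alpha during the first day in the host. No subunit gene passed the test, and the median over the group was close to 0. Of the 44 members tested with edgeR's quasi-likelihood test over 15706 genes, 0 passed a Benjamini-Hochberg adjusted p of 0.05 in either direction (background 0.0% higher and 0.00637% lower, which is the 1 gene Xlr3c, named after its values were seen). At an unadjusted p under 0.05 there were also 0 members, against 1.12% of all tested genes higher and 2.56% lower. DESeq2 called 0 members, against 0.306% of genes higher and 0.42% lower, and limma-voom called 0 genes of any kind. Fitted log2 fold changes of members (knockout minus mock) lay between -0.49 and 0.51 with a median of -0.0072, beside a median of 0.047 over all tested genes. Their SEs ran from 0.28 to 0.55 with a median of 0.33. With errors of this size and 1 mock library, the lack of a call does not show that a subunit gene was unchanged. Fold changes of single genes are given below on the log2 scale, knockout minus mock, as the fitted value ± its SE.

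All subunit genes together took 0.640%, 0.742% and 0.634% of the counts in c11, c15 and c22, against 0.653% in mock. The core genes summed to 2555, 2969 and 2487 CPM in c11, c15 and c22, against 2684 CPM in mock. The regulatory particle genes summed to 3243, 3688 and 3330.1 CPM in c11, c15 and c22, against 3258 CPM in mock. Here and below they are all Psmc and Psmd genes, with the assembly chaperone genes Psmd5, Psmd9 and Psmd10 among them. Library c15 was the highest on both sums. Mock lay between c11 and c15 on the core, with c22 the lowest, and between c11 and c22 on the regulatory particle.

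**Figure D1:**
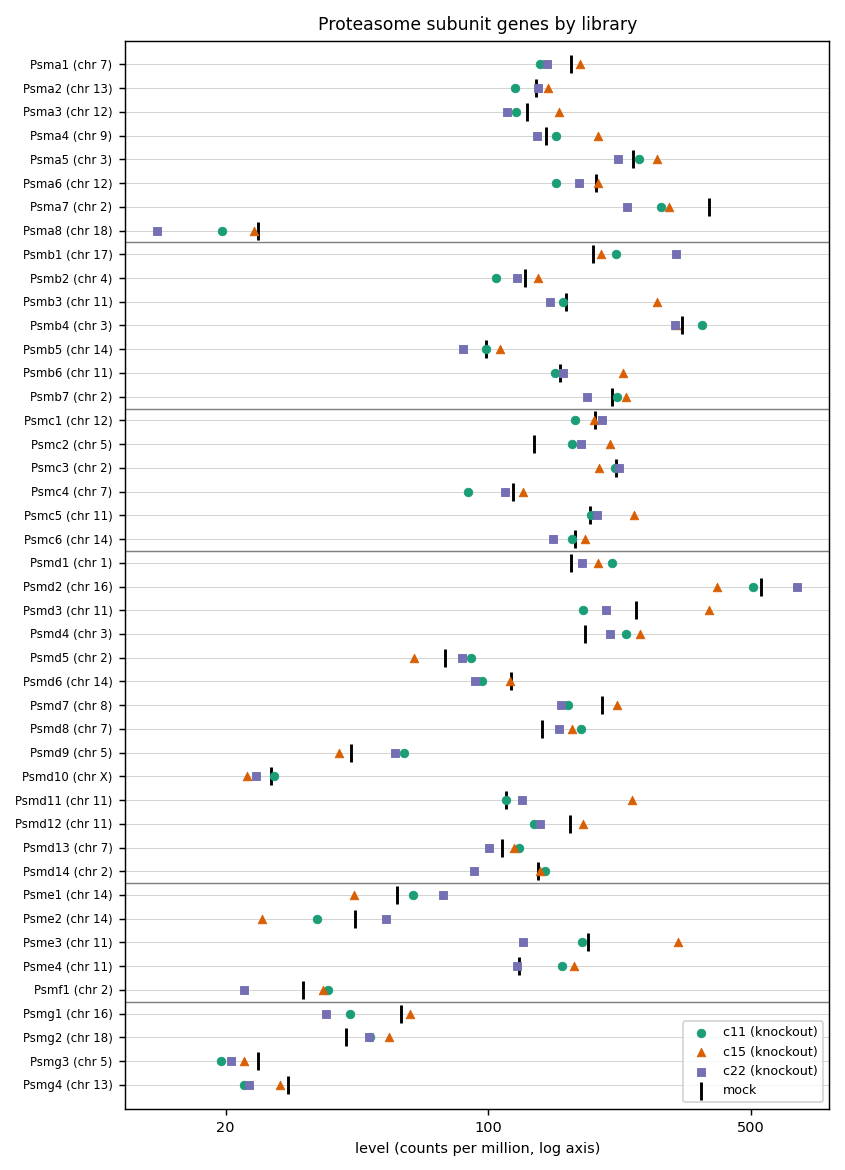
Level of each of the 44 tested subunit genes (CPM, log axis, not divided by length) in the knockout libraries c11 (circles), c15 (triangles) and c22 (squares) and in mock (black ticks), with grey lines between alpha ring, beta ring, ATPases, other regulatory particle, activators with the inhibitor, and assembly chaperones. The axis spans 13.1 to 663 CPM, and the mock tick lies between the knockout points for 31 genes.

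Most subunit genes lay near mock in every knockout library. In all 3 knockout libraries, 34 of 44 members (77.3%) lay within 1.5-fold of mock (log2 ratio of CPM with 0.5 added), against 41.7% of all tested genes and 56.1% of the 8065 genes whose mean reached 20 CPM or more. These shares have no test. The share was higher among genes of at least 20 CPM than over all tested genes, and most members lay well above 20 CPM. No set matched to the members in level was counted, so the part of level in this difference was not tested. The SD of the ratio among members was 0.26 in c11, 0.36 in c15 and 0.32 in c22, beside 0.65, 0.56 and 0.72 over those 8065 genes. The gap was smaller between quartiles. The interquartile range was 0.43, 0.34 and 0.34 among members, beside 0.60, 0.51 and 0.69. In c11 no member was 1.5-fold from mock, where 16.7% of tested genes were higher and 17.0% lower. In c15, 5 members (Psmb3, Psmc2, Psmd3, Psmd11 and Psme3) were at least 1.5-fold higher and 1 (Psme2) lower, against 11.4% and 14.6% of tested genes. In c22, 1 member (Psmb1) was higher and 3 (Psma7, Psma8 and Psmg1) were lower, against 17.7% and 19.9%. These shares include genes of low level. Of the 8065 genes with a mean of at least 20 CPM, 1043 were at least 1.5-fold higher and 761 lower in c11. The counts were 705 and 618 in c15, and 1086 and 1137 in c22. No member was past 1.5-fold in more than 1 knockout library. All these ratios are set against the same mock library.

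**Figure D2:**
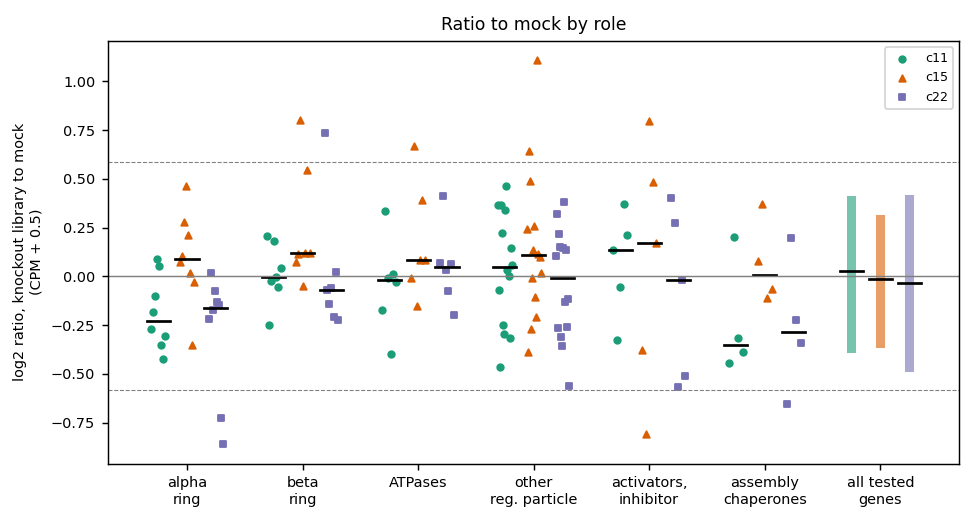
Log2 ratio of each subunit gene's CPM (0.5 added) to mock in c11 (circles), c15 (triangles) and c22 (squares) by role, with black bars for medians and dashed lines at 1.5-fold, where the right-hand bars span the quartiles of all 15706 tested genes. Medians of the alpha ring lay between -0.23 (c11) and 0.091 (c15), and the farthest point is Psmd11 in c15 at 1.11.

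Across all 3 knockout libraries 8 members were above mock, namely Psmb1, Psmc2, Psmc5, Psmd1, Psmd4, Psmd8, Psmd11 and Psmg2, and 5 were below, namely Psma7, Psma8, Psmd6, Psmg3 and Psmg4. As shares of 44 these do not exceed the 21.0% and 22.5% of all tested genes that were above or below mock in the same way. The other 31 members had knockout libraries on both sides of mock. Psmd11 counts as above with c11 at 111.46 CPM, against 111.44 CPM in mock. Among the regulatory particle genes 6 of 20 were above and 1 below, and among the core genes 1 of 15 were above and 2 below. With 1 knockout library left out, 10 (without c11), 11 (without c15) and 15 members (without c22) were above mock in both remaining libraries, and 7 (without c11), 18 (without c15) and 9 (without c22) were below. The share of all tested genes was not counted for these cases, and the 21.0% and 22.5% for 3 libraries cannot be set beside them. Psmd1 and Psmd8, which encode a scaffold of the base and a lid subunit, were among the 8. Psmd1 was at 213, 196 and 178 CPM in the knockout libraries, against 165 CPM in mock. Psmd8 was at 176, 167 and 154 CPM in the knockout libraries, against 139 CPM in mock.

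The 8 alpha ring genes had a median log2 fold change of -0.067, and library medians of -0.23 in c11, 0.091 in c15 and -0.16 in c22. Psma7, which encodes an alpha ring subunit, had the lowest fitted value of all members. Its level was 288, 303 and 234 CPM in the knockout libraries c11, c15 and c22, against 387 CPM in mock. All knockout libraries were thus below the single mock library, as they were for 22.5% of all tested genes. The fold change was -0.49 ± 0.29 (unadjusted p = 0.144, edgeR adjusted p = 1). Psma8 encodes the testis-enriched alternative to the Psma7 protein and was also below mock in each knockout library, at 19.6, 23.8 and 13.1 CPM in the knockout libraries c11, c15 and c22, against 24.3 CPM in mock. Its log2 fold change was -0.36 ± 0.45, and it lies on another chromosome than Psma7. Psma4 and Psma5 had the highest fitted values of the ring. Psma4 was at 151, 196 and 135 CPM in the knockout libraries, against 142 CPM in mock. Psma5 was at 252, 282 and 221 CPM in the knockout libraries, against 243 CPM in mock. Library c15 was the highest and c22 the lowest for both, and the log2 fold changes were 0.18 ± 0.34 and 0.055 ± 0.30. The sign for Psma5 turned without c15. The other 4 genes of the ring had log2 fold changes of -0.15 to 0.019.

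Among the beta ring genes, those of the proteolytic subunits lay within 1.5-fold of mock in every knockout library. Psmb6 in c15 came near that line, at a log2 ratio of 0.55. Psmb5, which encodes the subunit with chymotrypsin-like activity (chromosome 14, 54614119 to 54618022, minus strand), was at 98.5, 107 and 85.3 CPM in the knockout libraries c11, c15 and c22, against 98.5 CPM in mock, and mock lay inside the range of the knockout libraries. Psmb6, which encodes the caspase-like subunit (chromosome 11, 70525367 to 70527858, plus strand), was at 150.0, 227 and 158 CPM in the knockout libraries c11, c15 and c22, against 155 CPM in mock, with c15 apart from the other libraries. Psmb7, which encodes the trypsin-like subunit (chromosome 2, 38588036 to 38644087, minus strand), was at 219.9, 232 and 182 CPM in the knockout libraries c11, c15 and c22, against 213 CPM in mock, and its span overlaps that of Nek6 on the opposite strand. Their log2 fold changes were -0.019 ± 0.31, 0.20 ± 0.37 and -0.010 ± 0.30, each smaller than its SE, and each turned sign when c15 (Psmb6) or c22 (Psmb5 and Psmb7) was left out.

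Of the beta subunits without proteolytic activity, Psmb1 and Psmb3 had the highest fold changes and Psmb2 the lowest. Psmb1 was at 219, 199 and 316 CPM in the knockout libraries c11, c15 and c22, against 189.6 CPM in mock, above mock in each knockout library and highest in c22 (log2 fold change 0.37 ± 0.38). Psmb3 was at 158, 281 and 146 CPM in the knockout libraries c11, c15 and c22, against 161 CPM in mock: only c15 was above mock, and the fitted 0.28 ± 0.46 became -0.081 without it. Psmb2 was at 105, 135 and 119 CPM in the knockout libraries, against 125 CPM in mock, with mock inside the knockout range. Psmb11, the beta subunit of the thymus, had 1, 0 and 1 counts in c11, c15 and c22 and 0 in mock, and it was the only member that did not enter the test.

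The interferon-inducible genes, whose products replace the proteolytic subunits, are not members. Psmb8, which replaces Psmb5, was at 4.11, 7.28 and 10.01 CPM in the knockout libraries, against 7.51 CPM in mock, and Psmb9, which replaces Psmb6, at 1.63, 2.65 and 4.66 CPM in the knockout libraries, against 2.83 CPM in mock. For both, c22 was the highest library and c11 the lowest. Psmb10, which replaces Psmb7, was at 28.1, 55.3 and 29.3 CPM in the knockout libraries, against 53.8 CPM in mock, with c11 and c22 below mock and c15 at its level. None of the 3 passed the test, with log2 fold changes of -0.066 ± 0.64, 0.085 ± 0.78 and -0.51 ± 0.48.

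The 6 ATPase genes had a median log2 fold change of -0.033. Psmc2 had the highest of them. It was at 167, 211 and 176 CPM in the knockout libraries c11, c15 and c22, against 132 CPM in mock. All 3 knockout libraries lay above mock, and the fold change was 0.49 ± 0.32 with an unadjusted p of 0.176 (edgeR adjusted p = 1). Psmc5 was above mock by a smaller margin, at 187, 244 and 194 CPM in the knockout libraries, against 186 CPM in mock (log2 fold change 0.17 ± 0.32). Psmc4 and Psmc6 had the lowest values of the ring. Psmc4 was at 87.99, 123 and 110.5 CPM in the knockout libraries, against 116 CPM in mock. Psmc6 was at 167, 181 and 148 CPM in the knockout libraries, against 170.0 CPM in mock. Mock lay inside the knockout range of both. The remaining ATPase genes Psmc1 and Psmc3 were fitted at -0.029 ± 0.29 and -0.037 ± 0.28.

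The 14 Psmd genes had a median log2 fold change of 0.053. Psmd11, a scaffold of the lid, had the highest fitted value of all members, 0.51 ± 0.53. Its level was 111, 241 and 122 CPM in the knockout libraries c11, c15 and c22, against 111 CPM in mock, so that c15 stood apart and mock was at the level of c11. Without c15 the fold change was 0.073. Psmd3, another lid gene, was at 179, 387 and 205 CPM in the knockout libraries c11, c15 and c22, against 247 CPM in mock. Here c15 was above mock and the other knockout libraries were below it, and the fitted 0.062 ± 0.50 became -0.36 without c15. Psmd4, which encodes a ubiquitin receptor, was at 233, 253 and 209.9 CPM in the knockout libraries c11, c15 and c22, against 180.2 CPM in mock, above mock in every knockout library (log2 fold change 0.37 ± 0.30, unadjusted p = 0.262, edgeR adjusted p = 1). Psmd6 and Psmd7 had the lowest fitted values. Psmd6 was at 96.4, 114 and 92.3 CPM in the knockout libraries, against 115 CPM in mock, with c15 at the mock level. Psmd7, the partner of the deubiquitinase subunit Psmd14, was at 163, 220.0 and 156 CPM in the knockout libraries, against 200.1 CPM in mock, with c15 above mock and the others below. Psmd14 itself was at 141, 137 and 91.7 CPM in the knockout libraries, against 136 CPM in mock, lowest in c22. Psmd2, the large scaffold of the base, was at 505, 406 and 663 CPM in the knockout libraries, against 531 CPM in mock, lowest in c15 and highest in c22. Psmd5, Psmd9 and Psmd10 encode chaperones that assemble the base and leave it again, and their fitted values were 0.054 ± 0.34, 0.27 ± 0.37 and -0.10 ± 0.35. Psmd12 and Psmd13, both of the lid, were fitted at -0.13 ± 0.32 and 0.052 ± 0.30.

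The activator genes differed between the knockout libraries. Psme1 and Psme2 encode the partners of the interferon-inducible activator cap. Psme1 was at 62.8, 43.9 and 75.8 CPM in the knockout libraries, against 57.2 CPM in mock. Psme2 was at 35.1, 24.9 and 53.4 CPM in the knockout libraries, against 44.1 CPM in mock. Both were lowest in c15 and highest in c22, with mock inside the range. Psme3, which encodes the nuclear activator, showed the opposite order, at 177, 319.6 and 124 CPM in the knockout libraries c11, c15 and c22, against 183 CPM in mock. Psme3 had the widest range among knockout libraries of all members (log2 range 1.37), followed by Psmd3 (1.11), Psmd11 (1.11), Psme2 (1.08) and Psmb3 (0.94). Psme4, which encodes a large activator of the nucleus, was at 157, 169 and 119 CPM in the knockout libraries, against 121 CPM in mock (log2 fold change 0.30 ± 0.33). The table also held Psme2b, a protein-coding copy of Psme2 that the rule leaves out, at 17.6, 22.7 and 17.8 CPM in the knockout libraries, against 17.6 CPM in mock, and the sources used here do not say how reads common to both were counted. The inhibitor gene Psmf1 was at 37.3, 36.2 and 22.4 CPM in the knockout libraries, against 32.1 CPM in mock, lowest in c22.

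The 4 genes of the core assembly chaperones had a median log2 fold change of -0.24. Psmg1 and Psmg2 encode partners in alpha ring assembly, and both were highest in c15 among the knockout libraries. Psmg1 was at 42.9, 61.7 and 36.9 CPM in the knockout libraries, against 58.5 CPM in mock, and Psmg2 at 48.3, 54.4 and 48.2 CPM in the knockout libraries, against 41.9 CPM in mock. Mock lay below all knockout libraries for Psmg2 only. Psmg4 was below mock in each, at 22.3, 27.97 and 23.01 CPM in the knockout libraries, against 29.3 CPM in mock, as was Psmg3, at 19.4, 22.4 and 20.7 CPM in the knockout libraries, against 24.3 CPM in mock. The log2 fold changes of Psmg1, Psmg2, Psmg3 and Psmg4 were -0.31 ± 0.39, 0.27 ± 0.32, -0.22 ± 0.36 and -0.26 ± 0.36.

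Levels between subunits were compared per length, as CPM per kilobase of annotated exons (GENCODE M21, all 45 IDs found) averaged over the 4 libraries. In the alpha ring the levels ran from 8.10 for Psma8 to 189 CPM per kb for Psma5, with a median of 59.2. The beta ring ran from 50.3 for Psmb1 to 169.8 CPM per kb for Psmb4, leaving out Psmb11, with a median of 92.3. ATPase levels ran from 34.1 for Psmc2 to 146 CPM per kb for Psmc5. The Psmd genes spanned 6.88 for Psmd9, which encodes a chaperone of base assembly, to 130.4 CPM per kb for Psmd2. The Psmg assembly chaperone genes spanned 7.51 for Psmg3 to 46.2 for Psmg4. For subunits present in equal number in the particle, this value per length differed by 3.38-fold within the beta ring and 4.27-fold within the ATPases. Annotated exon length differed as well. Psmc2 and Psmc5 had 5031 and 1394 bases at a mean of 172 and 203 CPM. Psmb1 and Psmb4 had 4595 and 1951 bases at a mean of 231 and 331 CPM. The part of the annotated length in these differences was not tested. Annotated exons include those of rarely used transcripts, so a long annotation lowers the value. Psma2, Psma3, Psma4, Psmb7, Psmc3, Psmd3, Psmd13 and Psme1 overlap another gene with over 100 counts, and which gene shared reads were given to is not known here.

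Library c15 held the highest level of the 4 for 24 of the 44 tested members, c11 for 9, c22 for 6 and mock for 5, while 25.0%, 26.0%, 26.5% and 22.5% of all tested genes were highest in c15, c11, c22 and mock. The lowest level was in c22 for 18 members, in c11 for 11, in c15 for 7 and in mock for 8, beside 30.3%, 21.8%, 26.7% and 21.2% of all tested genes. By role, c15 was the highest library for 6 of 8 alpha ring genes, 5 of 7 beta ring genes and 4 of 6 ATPase genes, but for 5 of the 14 Psmd genes, of which 7 were highest in c11.

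Of the 5 members at least 1.5-fold above mock in c15, 4 lay on chromosome 11, and Psmc2 did not. This pattern was noticed in the data and has no test. Of the 45 members 8 are on that chromosome (Psmb3, Psmb6, Psmc5, Psmd3, Psmd11, Psmd12, Psme3 and Psme4), and all 8 were highest in c15, while 16 of the other 36 tested members were. Over all tested genes 25.0% were highest in c15, and among the 913 other genes of chromosome 11 with a mean of 5 CPM or more it was 49.7%. On the other numbered chromosomes this share ran from 8.31% (chromosome 16) to 43.8% (chromosome 4), with 41.9% on chromosome 9. The median log2 ratio of the 8 members to mock was 0.60 in c15, against -0.038 in c11 and -0.080 in c22. For the 913 other genes of the chromosome it was 0.27 in c15, -0.011 in c11 and -0.035 in c22. The summed level of the 8 members was 1252, 2048 and 1207 CPM in c11, c15 and c22, against 1329 CPM in mock. The sum of the other 36 was 5148, 5369 and 5134 CPM in c11, c15 and c22, against 5204 CPM in mock. The higher total of subunit RNA in c15 thus lay mostly in the members of chromosome 11.

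In c15, genes near 7 of these 8 members also had a median above mock, and those near Psme4 did not. The median log2 ratio to mock of other tested genes within 5 Mb, with a mean of at least 5 CPM, was set beside each member. Around Psmd11 (chromosome 11, 80428615 to 80473248) it was 0.68 in c15 over 113 neighbours, where Psmd11 itself was at 1.11. Around Psmb3 and Psme3 the neighbours were at 0.52 and 0.49 in c15, where the members were at 0.80 and 0.80. Psmb6 and Psmc5 were at 0.55 and 0.39, beside neighbours at 0.37 around both. Psme4 lies apart from these on the same chromosome and was at 0.48 in c15 with its neighbours at -0.062. Psmb1 on chromosome 17 was at 0.73 in c22 with its neighbours at 0.43, and the whole chromosome had a median of 0.51 there over 565 genes. Psmd2 on chromosome 16 was at -0.39 in c15 and 0.32 in c22, and its neighbours were at -0.43 and 0.27.

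Across the 44 tested members the ratio of a member and the median of its neighbours correlated with Pearson's r of 0.636 in c15, 0.469 in c22 and 0.243 in c11 (Spearman's rho 0.456, 0.360 and 0.233). These are correlations across genes, which are not independent replicates: members of a chromosome share neighbours, and all values of a library share its reads and the mock library. With the median of the neighbours subtracted, the SD among members was 0.27 in c15, 0.28 in c22 and 0.26 in c11, beside 0.36, 0.32 and 0.26 before. Some members stood apart from their neighbours. Psmc2 was at 0.67 in c15 with neighbours at -0.066, Psme2 at -0.81 with neighbours at 0.031, and Psma8 at -0.86 in c22 with neighbours at -0.11. The part of the region in a member's value was not tested.

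**Figure D3:**
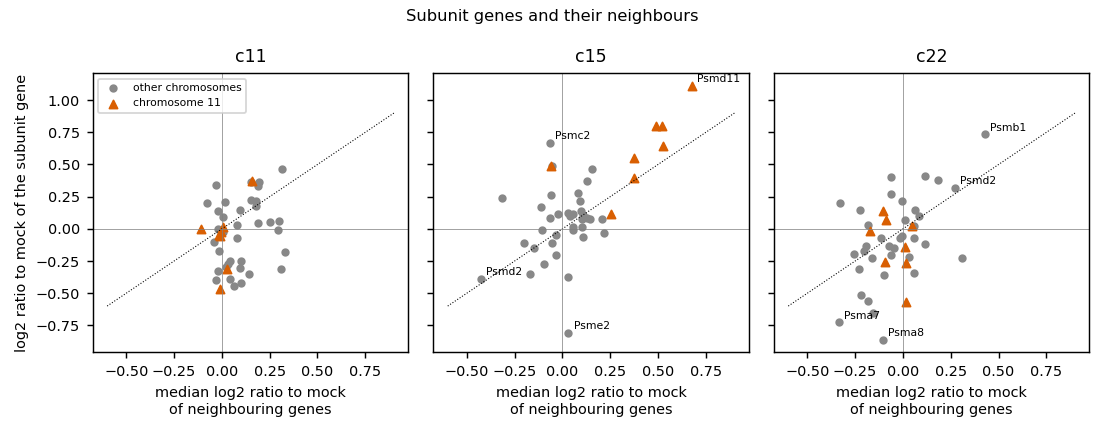
Log2 ratio to mock of each of the 44 tested subunit genes (vertical axis) against the median log2 ratio of the other tested genes within 5 Mb (horizontal axis) in c11, c15 and c22, with chromosome 11 members as triangles and a dotted line where both are equal. In c15, 7 of the 8 triangles lie above 0 on both axes, up to Psmd11 at 1.11 with its neighbours at 0.68.

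Among the regulators of the subunit genes, the gene of NRF1 stood farthest above mock. Of 12 tested genes of transcription and activation of proteasome genes, 0 passed the test over all genes, 2 had an unadjusted p under 0.05 (both higher), 6 were above mock in all 3 knockout libraries and 1 below, and the median log2 fold change was 0.23. Over all tested genes the shares were 1.12% higher and 2.56% lower at that p, and 21.0% above and 22.5% below mock in all 3. Nfe2l1 (chromosome 11, 96817414 to 96829968), which encodes NRF1, was at 377, 426 and 348 CPM in the knockout libraries c11, c15 and c22, against 164 CPM in mock. Each knockout library was at more than 2 times the mock level, and the log2 fold change was 1.23 ± 0.31 (unadjusted p = 0.00798, edgeR adjusted p = 0.626), so it did not pass. With DESeq2 the adjusted p of Nfe2l1 was 0.05165, which also did not pass. Nfe2l1 lies within 5 Mb of Psmb3, and the median ratio of the genes around Psmb3 was 0.52 in c15, -0.0047 in c11 and 0.012 in c22. The 6 members with TGACNNNGC in the promoter had log2 fold changes of -0.13 to 0.30. NRF1 is controlled mainly as a protein, by release from the membrane, which RNA does not show. Mafk, a small MAF partner, was at 33.7, 37.4 and 37.1 CPM in the knockout libraries, against 18.5 CPM in mock (log2 fold change 0.97 ± 0.36, unadjusted p = 0.0375, edgeR adjusted p = 1), and Mafg was at 167, 169.9 and 179.7 CPM in the knockout libraries, against 128 CPM in mock. Maff, another partner, was below mock in each, at 4.49, 8.49 and 9.33 CPM in the knockout libraries, against 15.6 CPM in mock. Nfya and Nfyb, subunits of the CCAAT-binding factor, had log2 fold changes of 0.11 ± 0.41 and 0.028 ± 0.33.

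**Figure D4:**
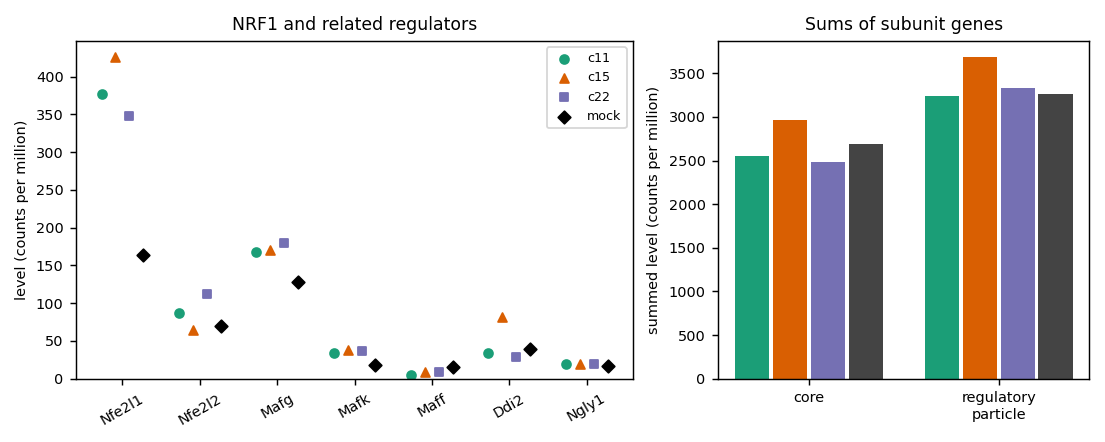
Left, level (CPM) of Nfe2l1, which encodes NRF1, and related regulators in c11, c15, c22 and mock, and right, summed level of the core and of the regulatory particle genes in the same libraries. Nfe2l1 was at 377, 426 and 348 CPM in the knockout libraries, against 164 CPM in mock, while the summed core was at 2555, 2969 and 2487 CPM against 2684 CPM in mock.

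Other parts and assembly factors of the proteasome also held no gene that passed. Of 10 tested, 0 passed, 3 were above and 1 below mock in all knockout libraries, beside 21.0% and 22.5% of all tested genes, and the median log2 fold change was 0.084. Akirin2, needed for import of proteasomes into the nucleus, had the highest value, at 72.7, 60.7 and 71.4 CPM in the knockout libraries c11, c15 and c22, against 40.1 CPM in mock (log2 fold change 0.77 ± 0.33, unadjusted p = 0.0599, edgeR adjusted p = 1). Fbxo7 was at 14.02, 12.3 and 14.5 CPM in the knockout libraries, against 12.03 CPM in mock. The ubiquitin receptor gene Adrm1 was at 109, 116 and 91.9 CPM in the knockout libraries, against 93.99 CPM in mock. The proteasome-bound deubiquitinase genes Uchl5 and Usp14 were both highest in c15. Uchl5 was at 44.2, 72.1 and 45.9 CPM in the knockout libraries, against 66.3 CPM in mock. Usp14 was at 142, 185 and 117 CPM in the knockout libraries, against 152 CPM in mock. The maturation factor gene Pomp was at 113, 122 and 125 CPM in the knockout libraries, against 127 CPM in mock, with all knockout libraries below mock by less than 1.5-fold.

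None of the genes that supply ubiquitin or deliver substrates passed the test, and none lay below mock throughout. Of 18 tested, 0 passed the test and 0 had an unadjusted p under 0.05, but 10 were above mock in all 3 knockout libraries and 0 below, beside 21.0% and 22.5% of all tested genes, and the median log2 fold change was 0.37. Vcp, which encodes the segregase that pulls proteins from membranes and complexes, was at 432, 553 and 575 CPM in the knockout libraries c11, c15 and c22, against 363 CPM in mock (log2 fold change 0.52 ± 0.32). The stress-inducible Zfand2a was at 35.9, 23.3 and 29.7 CPM in the knockout libraries, against 17.8 CPM in mock. It was above mock in every knockout library. At the other end, mock lay inside the knockout range. The delivery factor gene Ubqln4 was at 269.6, 310.5 and 170.4 CPM in the knockout libraries, against 245 CPM in mock. The activating enzyme gene Uba6 was at 63.3, 49.8 and 28.4 CPM in the knockout libraries, against 45.5 CPM in mock.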

How the data were processed

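The authors deposited 1 table of unnormalized read counts, with genes by Ensembl ID and a column for each of the 4 libraries; the RNA was poly(A)-selected and the library kit was directional according to the labels' protocols. The submitters' processing notes name featureCounts 1.6.3, SAMtools 1.9, HISAT2 2.1.0, Trimmomatic 0.38, FastQC 0.11.7 and GRCm38. The sources used here give no settings, strand among them, so reads of overlapping genes, antisense partners and processed copies may be shared. This concerns 8 members with an overlapping gene of over 100 counts.

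From these counts, edgeR 4.0.16 in R 4.3.3 (filterByExpr, TMM, robust quasi-likelihood test, 2-sided) was fitted over 15706 genes, with 2 residual degrees of freedom. Mock was assumed to vary as the knockout libraries do. Nothing says that the knockout libraries came from separate animals, so the p-values reflect only how far these libraries differ, which may be technical. SEs come from the F statistic. DESeq2 1.42.0 and limma-voom 3.58.1 were alternatives. Ratios per library are log2 of CPM with 0.5 added. No 2 libraries were alike within sampling noise (chi-square per gene 48.3 to 90.3). The fit was tested on simulated data.

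The members, lists and naming rule were chosen with earlier results of these data known. The rule named the proteolytic subunits, the 2 highest and 2 lowest fold changes of each class, the 5 widest ranges among knockout libraries, members under 1 CPM and the 3 highest and lowest of each related list, of which some are not reported here. Psmd2, Psmd14, Psmf1, other members outside it, the chromosome 11 comparison and the neighbours within 5 Mb were chosen after values were seen.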

Additional observations from a re-analysis of the deposited data

How the results depend on the processing

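No subunit gene was called under any setting run. These were other scalings, no filter, a mean of at least 1 CPM, DESeq2, limma-voom, the older dispersion method of edgeR (chosen after seeing the data) and leaving out each knockout library. Over all genes, DESeq2 called 48 higher and 66 lower, edgeR with no filter called 4 lower, and limma-voom and the older edgeR method called 0 lower. Leaving out a knockout library gave 0 genes in either direction. The core median was -0.086 to 0.064 and the regulatory particle median 0.017 to 0.030 with a library left out. The regulatory particle median was -0.029 with limma-voom and -0.0058 with upper quartile scaling, against 0.021 in the main fit. Without the members of chromosome 11, chosen after seeing the data, it was -0.020 and the core median -0.010. With TMM or with RLE scaling, 7 members were above mock in all 3 knockout libraries and 5 were below. With upper quartile scaling these counts were 6 and 7. Members above mock in all remaining knockout libraries numbered 10 to 15 and those below 7 to 18 with a library left out, since fewer libraries have to share a side. The matching shares of all tested genes were not counted.

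Among 495 repeats of the fold changes of 45 named genes, 470 kept their sign and 25 turned it. All that turned were within 0.28 of 0, and the cause was not tested beyond the library left out. With each knockout library left out in turn, the log2 fold change ran from -0.012 to 0.31 for Nfya, -0.036 to 0.11 for Nfyb, -0.038 to 0.13 for Psma5, -0.15 to 0.045 for Psmb2, -0.081 to 0.45 for Psmb3, -0.10 to 0.057 for Psmb5, -0.011 to 0.33 for Psmb6, -0.086 to 0.077 for Psmb7, -0.40 to 0.22 for Psmb8, -0.40 to 0.39 for Psmb9, -0.22 to 0.027 for Psmc4, -0.11 to 0.025 for Psmc6, -0.36 to 0.28 for Psmd3, -0.56 to 0.013 for Psme2, -0.29 to 0.43 for Psme3, -0.21 to 0.30 for Uba6, -0.16 to 0.24 for Ubqln4 and -0.23 to 0.10 for Usp14. Other settings that turned the sign were limma-voom for Psmd3 (-0.025), limma-voom for Psmb9 (-0.052), limma-voom for Uba6 (-0.022), limma-voom for Ubqln4 (-0.012).

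No paired analysis was possible because there was 1 mock library and the columns of the knockout lines carry no replicate number. The single mock library limits every comparison: its own spread was not measured.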
